A study of Mus musculus with 2 samples.

Results

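Mir335, Mir296, Mir298, Mir483 and Mir675 are microRNA genes at imprinted loci that act on growth, other than the large imprinted clusters of chromosome 12 and of Sfmbt2. They were chosen by gene symbol in the GENCODE M21 annotation and are 5 of the 2202 microRNA genes annotated in the count files. They stand for 4 loci: Mir335 for Mest, Mir296 and Mir298 for Gnas, Mir483 for Igf2, and Mir675 for H19. The study sequenced small RNA, with a size selection below 30 nt, from hearts of female B6CASTF1/J mice, a hybrid strain, at 4 days of age. There were 2 libraries from bulk heart tissue, biological replicates 1 and 2, from animals numbered 3 and 4 that carried the same donor entry. Both belonged to 1 group, no treatment was named in the labels, and no other age, sex, strain or tissue was analysed here. The p-values below therefore compare these 2 libraries, never a condition. They measure counting noise, except those of edgeR's exact test, which also uses a spread estimated from these 2 libraries.

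Imprinted genes are expressed from only 1 parental chromosome, and many of them promote or restrain growth before and soon after birth. Igf2 encodes a growth factor made from the paternal chromosome, and its neighbour H19 makes a long noncoding RNA from the maternal chromosome. Mest is a paternally expressed gene known from mesodermal tissue, and Gnas encodes the stimulatory G protein alpha subunit together with several oppositely imprinted transcripts. A microRNA is cut from a hairpin in a longer transcript, and either arm of the hairpin, named 5p or 3p, can become the mature strand of about the length selected here. Bases 2 to 8 of the mature strand, the seed, guide it to its target messages. The deposited counts are per hairpin gene and were not divided between the arms or between the parental alleles, so neither arm use nor imprinting itself was measured.

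The mature sequences of the 5 genes are shown first, because each count below is a count of reads over these short strands or their hairpins. All 5 genes matched the RefSeq table (GRCm38.p6), with coordinates identical to those of GENCODE M21. Each sequence runs 5′ to 3′, with the seed in capitals.
miR-335-5p: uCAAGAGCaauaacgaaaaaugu
miR-335-3p: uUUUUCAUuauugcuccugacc
miR-296-5p: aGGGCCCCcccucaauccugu
miR-296-3p: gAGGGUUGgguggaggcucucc
miR-298-5p: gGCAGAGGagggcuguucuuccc
miR-298-3p: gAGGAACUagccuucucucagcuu
miR-483-5p: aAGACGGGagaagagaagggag
miR-483-3p: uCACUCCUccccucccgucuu
miR-675-5p: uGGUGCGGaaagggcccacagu
miR-675-3p: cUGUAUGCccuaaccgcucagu

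The 10 mature sequences held 10 different seeds, and none of these seeds was found in a mature sequence of any other gene in the table. Of all 1738 mature sequences in that table, 32.0% had a seed that occurred in another gene. The 5 hairpins shared no stretch of 20 nt with another annotated microRNA hairpin on either strand. Among all GENCODE M21 transcripts, the mature sequences of Mir335, Mir296, Mir298 and Mir483 matched only their own gene, and those of Mir675 matched Mir675 and its host H19. Reads that map to several places are in no gene's count, and by this search none of the 5 genes had a second copy in annotated transcripts. Intergenic and intronic sequence of the rest of the genome was not searched.

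The genes differ in how they sit in their hosts. Mir335 (ENSMUSG00000065501.1) lies on chromosome 6 from 30741299 to 30741396 on the plus strand (mm10), in introns of all 7 Mest transcripts that span it. Mir483 (ENSMUSG00000070140.1) lies on chromosome 7 from 142654924 to 142654996 on the minus strand, in introns of all 7 Igf2 transcripts that span it and of the overlapping gene model Gm49394. Mir675 (ENSMUSG00000076275.1) lies 77776 bp away on the same strand, from 142577064 to 142577147, and is exonic: of the 4 H19 transcripts that span it, 3 carry it within exon 1 or exon 2. Mir296 (ENSMUSG00000065521.1, chromosome 2, 174267047 to 174267125) and Mir298 (ENSMUSG00000065410.1, chromosome 2, 174267504 to 174267585) lie 378 bp apart on the minus strand. Neither is inside another annotated gene. The nearest gene on their strand is Nespas, the antisense transcript of the Gnas locus, which ends 13651 bp from Mir298, and Gnas itself starts 16734 bp from Mir298 on the opposite strand.

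The libraries held 6417302 own-strand counts over microRNA genes in replicate 1 and 5662222 in replicate 2, and the multi-mapped reads left out made up 39.6% and 43.2% of all reads. A floor of 3 counts was 0.467 CPM (counts per 1000000) in replicate 1 and 0.530 CPM in replicate 2. The heart muscle genes Mir208a, Mir208b and Mir499 together held 20993 and 19146 CPM, and 6 neuronal Mir124a and Mir9 genes held 3 counts and 1 count, with Mir124a-1, Mir124a-2, Mir124a-3 and Mir9-1 at 0 in both libraries. The erythroid genes Mir451a and Mir144 held 489 CPM in replicate 1 and 126 CPM in replicate 2. The endothelial gene Mir126a held 51829 and 73011 CPM, and the smooth muscle genes Mir143 and Mir145a held 47055 and 60331 CPM. Mir221 (571 and 369 CPM) and Mir222 (121 and 49.1 CPM), also counted as endothelial, were higher in replicate 1. The leukocyte genes Mir142, Mir223 and Mir150 held 490 and 407 CPM, and the liver gene Mir122 held 105 and 86.2 CPM. The endocrine gene Mir375 held 20.4 and 11.3 CPM, and the epithelial genes Mir200c, Mir141 and Mir205 held 437 and 325 CPM. Unlike these sums, Mir223 (83.1 and 148 CPM), Mir150 (168 and 171 CPM) and Mir205 (1.40 and 31.8 CPM) were higher in replicate 2. The epithelial sum was mostly Mir200c (420 and 284 CPM), which like Mir141 was higher in replicate 1. Further epithelial genes were higher in replicate 2: Mir200a (4.67 and 4.77 CPM), Mir200b (27.0 and 58.5 CPM), Mir429 (40.7 and 54.7 CPM) and Mir203 (85.55 and 219 CPM). The part of these differences in the results below was not tested, and in bulk tissue fewer cells of a type and less RNA per cell cannot be told apart.

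All 5 genes passed the detection limit of 10 counts in each library, as did 373 of the 2202 genes. Their joint share was 3.81% in replicate 1, with an exact 95% Clopper-Pearson interval from 3.79 to 3.82. In replicate 2 it was 4.19%, with an interval from 4.17 to 4.20, and the mean was 4.00% ± 0.268 (SD, n = 2). Intervals of this kind cover counting error only, since reads are not independent molecules. Mir335 made up 81.8% of the sum of the 5 genes in replicate 1 and 77.7% in replicate 2, so that the joint share is mostly that of the Mest microRNA. For comparison, the 59 genes of the imprinted Dlk1-Dio3 region held 2.61% and 2.18% of the counts. In each library, therefore, these 5 genes held more counts than the whole Dlk1-Dio3 list.

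**Figure D1:**
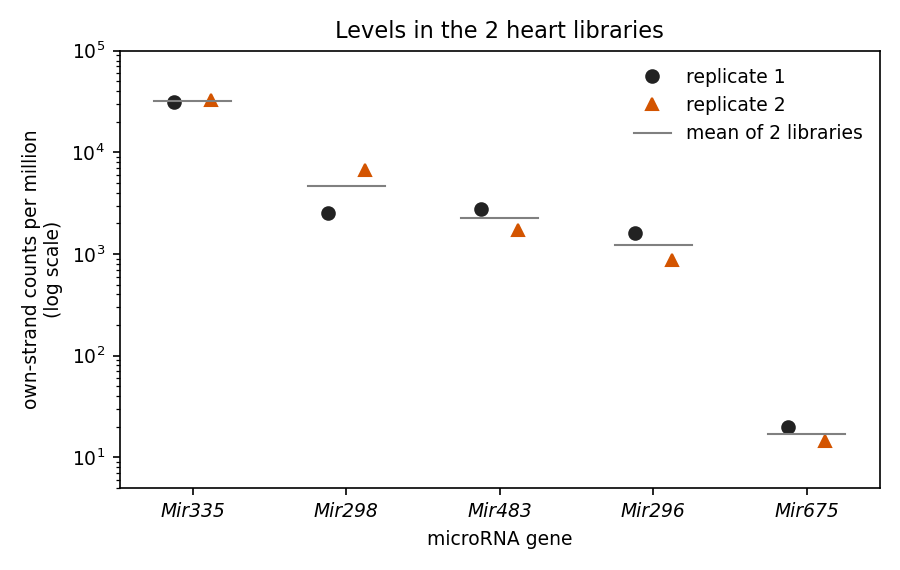
Own-strand CPM (log axis) of each gene in replicate 1 (circles) and replicate 2 (triangles), with the mean of both libraries as a line. Mir335 sits at 31149 and 32537 CPM, Mir675 below 20 CPM in both, and Mir298 is the member that is higher in replicate 2 by over 2-fold.

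Mir335, the intronic microRNA of Mest, was the most abundant of the 5 in both hearts. It held 31149 CPM in replicate 1 (199894 counts) and 32537 CPM in replicate 2 (184234 counts), a mean of 31843 ± 982 CPM (SD, n = 2). It took place 10 among all genes in replicate 1 and place 9 in replicate 2. The SD was 3.08% of the mean CPM, on library totals. On TMM-scaled totals, used for the comparison of the hearts below, Mir335 was 1.32-fold apart, further than Mir483 and Mir675. The genes most like it, by the distance between log2 CPM values over the 2 libraries among detected genes, were Mir99a (34763 ± 2590 CPM) and Mir322 (26636 ± 2466 CPM).

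The Gnas microRNAs Mir298 and Mir296 lay on different sides of the Igf2 microRNA Mir483 in mean level, and Mir298 changed its order to Mir483 between the libraries. Mir298 held 2557 CPM in replicate 1 (16412 counts) and 6726 CPM in replicate 2 (38086 counts), a mean of 4642 ± 2948 CPM (SD, n = 2). It took place 51 in replicate 1 and place 30 in replicate 2. Its partner Mir296, a microRNA known from endothelial cells and angiogenesis, held 1614 CPM in replicate 1 (10355 counts) and 863 CPM in replicate 2 (4888 counts), a mean of 1238 ± 531 CPM. Its places ran the other way, 63 in replicate 1 and 81 in replicate 2. The nearest genes in level were Mir499 (5070 ± 3418 CPM) and Mir27b (4248 ± 1706 CPM) for Mir298, and Mir15a (1374 ± 590 CPM) and Mir181b-2 (1166 ± 290 CPM) for Mir296. Mir499 and Mir27b, like Mir298, were called higher in replicate 2 in the test described below. Their closeness in both libraries is part of what chose them.

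The microRNAs of the Igf2 and H19 domain differed from each other by over 100-fold. Mir483 held 2751 CPM in replicate 1 (17655 counts) and 1739 CPM in replicate 2 (9849 counts), a mean of 2245 ± 715 CPM (SD, n = 2). Mir675, whose release from H19 is known to restrain growth of the placenta, held 19.8 CPM in replicate 1 (127 counts) and 14.3 CPM in replicate 2 (81 counts), a mean of 17.05 ± 3.88 CPM. Its share of the counts was 0.00198% in replicate 1 (exact 95% interval 0.00165 to 0.00235) and 0.00143% in replicate 2 (0.00114 to 0.00178). It took place 260 in replicate 1 and 262 in replicate 2. Mir483 outnumbered Mir675 139-fold in replicate 1 and 122-fold in replicate 2. Since Mir675 lies within H19 exons on the same strand, its counts per hairpin gene do not separate mature strands from H19 fragments. The nearest genes in level were Mir181d (2356 ± 609 CPM) and Mir541 (2005 ± 530 CPM) for Mir483, and Mir3064 (15.9 ± 3.98 CPM) and Mir7-1 (18.5 ± 5.86 CPM) for Mir675.

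In the order of the mean levels, Mir335 was followed by Mir298, Mir483, Mir296 and Mir675, and the order per hairpin length (73 to 98 nt) was the same. Mir335 exceeded Mir298 by 12.2-fold in replicate 1 and by 4.84-fold in replicate 2. Mir298 and Mir483 were the neighbours in that order whose ranges overlapped: Mir298 stood at 0.930 times Mir483 in replicate 1 and at 3.87 times in replicate 2. The values of Mir483 lay above those of Mir296 in both libraries, by 1.70-fold and 2.01-fold, with 1739 CPM as the lowest value of Mir483 against 1614 CPM as the highest of Mir296. Mir296 exceeded Mir675 by 81.5-fold and 60.3-fold. Levels of different microRNAs also carry how well each sequence was captured in the library, which was not measured here.

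All counts of the 5 genes came from their own strand. The column for the opposite strand held 0 counts for each of them in both libraries, which allows up to 3 counts (0.467 CPM in replicate 1, 0.530 CPM in replicate 2), and the column without strand held the same numbers as the own-strand column. This also holds for Mir296 and Mir298, which lie opposite in strand to Gnas. Of the 373 detected genes, 340 had 0 counts on the opposite strand in both libraries.

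Each gene was then compared between the hearts with an exact binomial test, two-sided and with TMM-scaled library sizes, and called at a Benjamini-Hochberg adjusted p under 0.05 with a fold over 2. Of all 491 genes tested, 10.8% were called, 3.26% as higher in replicate 1 and 7.54% as higher in replicate 2. Of the 5 genes, 1 was called. Mir298 was higher in replicate 2, with a log2 ratio of replicate 1 over replicate 2 of −1.73 (counting SE 0.01), or 3.31-fold, and an exact adjusted p too small for the computer's number format. With a dispersion estimated from both libraries as 1 group, edgeR's exact test called 0.815% of the 491 genes and did not call Mir298 (p = 0.0221, adjusted p = 0.633). That test sets a gene against the average gap between these libraries, and the 4 genes it called were Mir26a-2, Mir185, Mir205 and Mir206.

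The other 4 genes stayed within 2-fold. Mir296 was 1.48-fold higher in replicate 1 (log2 ratio 0.57, counting SE 0.03, exact binomial adjusted p = 1.48e-118), and Mir483 was 1.26-fold higher there (0.33, counting SE 0.02, exact adjusted p = 5.39e-74). Mir335 had a log2 ratio of −0.40 (counting SE 0.005), a difference that scaling by total counts brought to −0.06. For Mir675, the log2 ratio was 0.13 (counting SE 0.20, exact adjusted p = 0.696), and no difference between the hearts was detected at 127 and 81 counts. The median log2 ratio was 0.13 over the 5 genes and −0.02 over all 491 tested, and the median absolute log2 ratio was 0.40 against 0.44. Scaling by total counts in place of TMM raised all ratios by 0.33 on the log2 scale and turned the split of calls from 16 higher in replicate 1 and 37 in replicate 2 to 39 and 22, and Mir298 was still called, at −1.40.

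Within the detected genes, Mir298 stood near the edge of the distribution. Its absolute log2 ratio took place 13 of 373, and of the 29 other genes within 2-fold of its mean level, 2 had a larger one. Mir296 took place 109, Mir335 place 182, Mir483 place 210 and Mir675 place 304. The summed level of the heart muscle genes was 1.10 times as high in replicate 1 as in replicate 2, but its members differed: Mir208a stood at 1.81 times, Mir208b at 1.32 times and Mir499 at 0.354 times. The endothelial gene Mir126a stood at 0.710 times, the smooth muscle genes at 0.780 times and the erythroid genes at 3.88 times. Unlike Mir126a, the endothelial genes Mir221 and Mir222 were higher in replicate 1, so the endothelial genes gave no single direction. On the same CPM scale Mir298 stood at 0.380 times and Mir296 at 1.87 times. Mir499 is also the gene nearest to Mir298 in level over both libraries, so the likeness of their ratios restates that closeness.

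**Figure D2:**
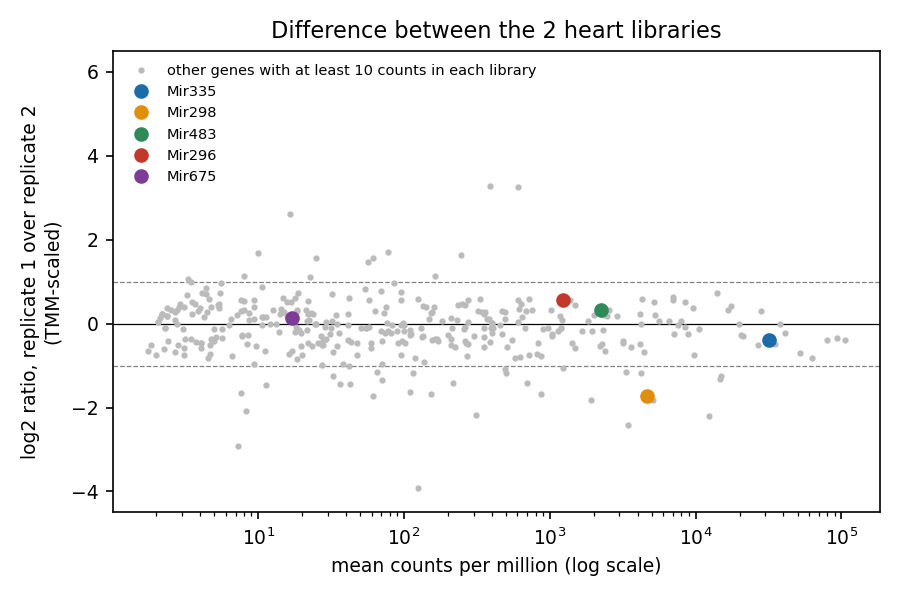
Log2 ratio of replicate 1 over replicate 2 (TMM-scaled) against the mean CPM (log axis) for the 373 detected genes, with the 5 imprinted-locus genes in colour and dashed lines at 2-fold. Mir298 lies at −1.73, outside the dashed lines, while the other 4 genes lie between −0.40 and 0.57.

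Ratios of 2 genes within a library do not depend on how libraries are scaled, so all 10 pairs of the 5 genes were compared between the hearts. In a two-sided Fisher's exact test with Benjamini-Hochberg adjustment, 9 of the 10 pairs passed an adjusted p of 0.05. The share of all gene pairs that pass this test was not computed, so the 9 have no background. Small shifts pass at such counts, as for Mir296 and Mir483 (1.18-fold, Fisher's exact test, adjusted p = 8.22e-15). Of the 9 pairs, 4 shifted by over 2-fold. Those 4 are the pairs that contain Mir298, so the count restates the difference of that gene, and of all pairs of the 373 detected genes 25.8% shifted by over 2-fold between these libraries. The largest shift was within the Gnas locus itself. Mir296 made up 38.7% of the summed counts of the Gnas pair in replicate 1 (exact 95% interval 38.1 to 39.3) and 11.4% in replicate 2 (11.1 to 11.7). The ratio of Mir296 to Mir298 was 0.631 in replicate 1 and 0.128 in replicate 2, a 4.92-fold change (95% interval 4.73 to 5.11, counting error only).

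For the other 3 pairs with Mir298, the change against Mir483 was 4.16-fold (95% interval 4.03 to 4.29), against Mir675 3.64-fold (2.75 to 4.81) and against Mir335 2.52-fold (2.47 to 2.57). Pairs without Mir298 shifted by 1.14-fold to 1.95-fold. Mir483 and Mir675, from the same imprinted domain, had the smallest shift: Mir483 made up 99.29% of their sum in replicate 1 and 99.18% in replicate 2 (Fisher's exact test, adjusted p = 0.346 over the 10 pairs). The change of their ratio was 1.14-fold with a 95% interval from 0.864 to 1.51, so that a shift of up to 1.51-fold lay within counting error. Mir296 and Mir483 shifted by 1.18-fold (1.13 to 1.23).

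**Figure D3:**
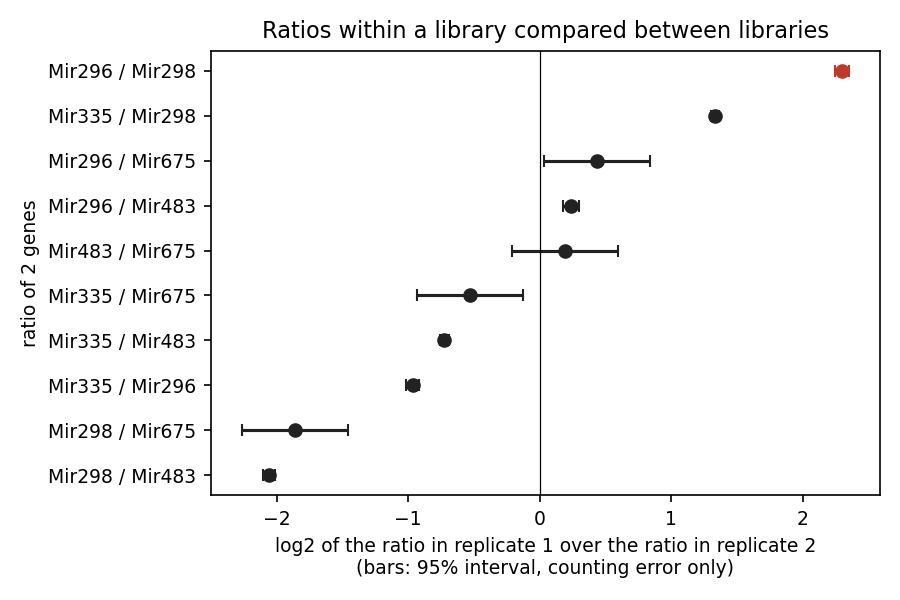
Log2 of the ratio of 2 genes in replicate 1 over the same ratio in replicate 2 for the 10 pairs, with bars for the 95% interval of counting error. Mir296 over Mir298 lies farthest from 0, at 2.30, and Mir483 over Mir675 has the interval that spans 0.

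The hairpins of the Gnas pair are printed whole, since these neighbours showed the largest shift. Both lie on the minus strand of chromosome 2 (GRCm38.p6), and the capitals mark the 5p and the 3p mature sequence.
Mir296: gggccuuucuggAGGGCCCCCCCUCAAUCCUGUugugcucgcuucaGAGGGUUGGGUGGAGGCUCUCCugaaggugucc
Mir298: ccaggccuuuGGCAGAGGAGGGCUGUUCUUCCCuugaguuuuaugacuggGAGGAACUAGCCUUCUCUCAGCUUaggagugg

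The Mir296 hairpin is 79 nt long with 63.3% G and C, and the Mir298 hairpin is 82 nt long with 53.7%. Of the detected genes, 10.5% had a hairpin richer in G and C than Mir296 and 38.6% one richer than Mir298. Mir675 (63.1%) and Mir483 (58.9%) were G and C rich too, whereas Mir335 (42.9%) was below the median of 51.2%. Across the 373 detected genes, the log2 ratio of replicate 1 over replicate 2 and the G and C content of the hairpin had a Pearson r of 0.10 and a Spearman rho of 0.19, a description across genes of the same 2 libraries, which are not independent replicates.

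To place the Gnas pair, the log2 ratios of neighbouring microRNA genes were set side by side, a comparison chosen after the pair's values had been seen. Neighbours were consecutive genes on the same strand, at most 10 kb apart, with at least 100 counts in each library. There were 90 such pairs. Their log2 ratios differed by a median of 0.49, and 20% of the pairs differed by over 1. Mir296 and Mir298 differed by 2.30, which no other of the 90 pairs reached. The next was Mir380 and Mir323 at 2.03, the only other pair over 2. A limit of 1 kb (53 pairs) gave no larger difference, but those pairs are part of the 90, so it could not have given one. With at least 1000 counts in each library (45 pairs) no larger difference occurred, and only pairs not among the 90 could have given one. With a limit of 50 kb (97 pairs) Mir1306 and Mir185, 43083 bp apart, differed by more, at 2.96.

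**Figure D4:**
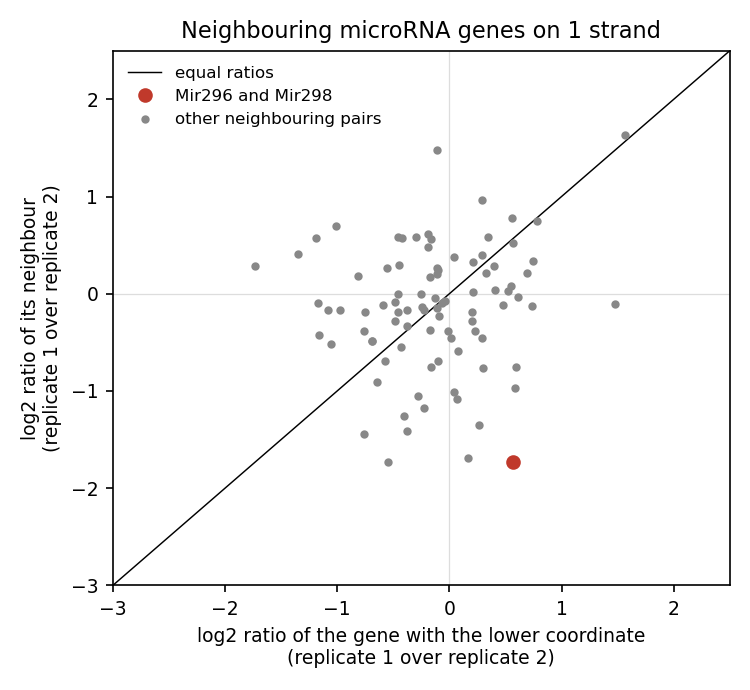
Log2 ratio of replicate 1 over replicate 2 for 90 pairs of neighbouring microRNA genes, with the gene at the lower coordinate on the x axis and its neighbour on the y axis; the line marks equal ratios. Mir296 and Mir298, at 0.57 and −1.73, lie farthest from the line.

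The other imprinted microRNA genes were called about as often as all tested genes in the Dlk1-Dio3 region. Within Sfmbt2 only 9 genes were tested, too few to compare their share with that of all genes. Of 59 genes in the Dlk1-Dio3 list, which lies on chromosome 12 and is expressed from the maternal chromosome, 47 were detected and 48 tested. Mir539 was called as higher in replicate 1, and Mir379, Mir380, Mir496a and Mir668 as higher in replicate 2, so 43 were not called and the share called was 10.4%, against 10.8% of all tested genes. Under scaling by total counts 4 genes of the list were called higher in replicate 1 and 2 in replicate 2. The median log2 ratio of the list was −0.02, the same as over all 491 tested genes. Its highest genes were Mir127, at 6733 and 3717 CPM, and Mir379, at 2394 and 4258 CPM.

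Of the 119 microRNA genes within Sfmbt2, a cluster known from placenta, 8 were detected and 9 were tested. The exact binomial test called 0 of these 9, against 10.8% of all 491 tested genes, and 9 genes are too few to set these apart. Of the 9, 6 had an unadjusted binomial p under 0.05 but stayed within 2-fold. By edgeR's exact test 0 were called as well (0 at an unadjusted p under 0.05), against 0.815% of all tested genes. The log2 ratios of the 9 ran from −0.65 to 0.39. The highest were Mir467d (684 ± 207 CPM) and Mir467e (388 ± 22.5 CPM), members of repeat families whose multi-mapped reads are not counted. The Sfmbt2 genes held 0.174% and 0.131% of the counts, less than Mir483 alone in each library (0.275% and 0.174%). Because multi-mapped reads are not counted, this share and the 8 detected genes can understate the repeat-rich Sfmbt2 cluster. The comparison with Mir483 is therefore of counted reads, not of levels.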

How the data were processed

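The deposited files, 1 for each library, give unnormalized counts of reads for each microRNA gene on the mm10 build with annotation M21, per the file headers of the deposited description. Which aligner, counter and trimming were used is not given in the sources used here. Of the 3 count columns, the own-strand column was used, and the 4 summary entries (55.6% of reads in replicate 1, 58.0% in replicate 2) stayed out of library sizes and tests.

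Computed from the counts were CPM on the own-strand total, exact binomial tests across all genes with at least 10 counts in the sum (0.5 added to each count in log2 ratios, TMM factors 1.12 and 0.891 from edgeR 4.0.16), Fisher's exact tests over 10 pairs and Clopper-Pearson 95% intervals. With 1 group, edgeR's quasi-likelihood test has no contrast. DESeq2 1.42.0 gave alternative size factors. R 4.3.3, Python 3.11.15, scipy 1.17.1, numpy 2.4.6, pandas 2.3.3 and matplotlib 3.10.9 were used. The binomial test was tried on simulated Poisson counts with total-count scaling and no spread between animals. That simulation does not show how the test performs between 2 animals.

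The members and lists were chosen with earlier results of these data known. By rule, named were the 5 members, the 2 genes nearest to each in log2 CPM, genes sharing a member's seed (there were 0), the 2 highest of each imprinted list, and cell type markers. The genes called by edgeR, the called Dlk1-Dio3 genes and the neighbour pairs other than Mir296 and Mir298 were named after their values were seen. So were Mir221, Mir222, Mir200a, Mir200b, Mir429 and Mir203. CAST variants were not examined.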

Additional observations from a re-analysis of the deposited data

How the results depend on the processing

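The number of genes called between the hearts was 53 and ran from 40 to 61 under the other scalings, columns, added counts and filters, but was 4 with edgeR's exact test and a common dispersion (26 genes at an unadjusted p under 0.05), which allows for the spread between these libraries. With that test 0 of the 5 members were called (1 at an unadjusted p under 0.05), against 1 otherwise. No member's log2 ratio changed sign under the 7 alternatives, but edgeR's exact test keeps the main ratio and so could not change it. The joint share of the members was 5.00% on the column without strand and 1.72% of all reads, where the total is smaller or larger, and ran from 3.81% to 4.19% when either replicate was left out. Of the pair ratios, 9 of 10 passed Fisher's exact test, for which no share over all gene pairs was computed. When a 2-fold shift was also required 4 passed, all with Mir298. Of all pairs of detected genes, 25.8% shifted by over 2-fold. With at least 100 counts in each library, 4 of 5 members were detected, without Mir675. Leaving out a replicate leaves no comparison between hearts. No paired analysis was possible because there is 1 group. At 127 and 81 counts, depth limits Mir675 most.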
